A study of Mus musculus with 8 samples.

Results

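The basement membrane and notochord sheath genes are 33 genes, given as a list of symbols, that encode type IV, XV and XVIII collagen chains, laminin chains, nidogens, heparan sulfate proteoglycans and associated proteins. All 33 were found among the 43346 gene identifiers of the count files, and all 33 passed the filter on low counts that left 15467 genes for testing. RNA was sequenced from notochord-derived cells (NDCs) of Shh-cre;ROSA:YFP mice, in which Cre driven by the Sonic hedgehog gene permanently switches on YFP in notochord cells and their progeny. The E12.5 group held notochordal cells at embryonic day 12.5 from 4 litters (NDP10.2, NPD3, NPD4 and NPD9.2). The P0 group held nucleus pulposus (NP) cells at postnatal day 0, also from 4 litters (NPD26, NPD27, then NPD28 and NPD30). Both groups carried the same alleles, and the labels name no treatment. Each library came from the pooled animals of a single litter. E12.5 notochords were dissected whole and frozen without sorting, whereas P0 cells were shaken out of the opened discs and sorted for YFP, so the stage and the way of isolation cannot be told apart.

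A basement membrane is a thin sheet of extracellular matrix that cells secrete against their own surface. Laminin trimers, each of an alpha, a beta and a gamma chain, polymerize on receptors such as integrins and dystroglycan, type IV collagen trimers form a second network, and nidogens and perlecan join the networks. The embryonic notochord is wrapped in such a sheath, whereas in the disc the descendants of its cells lie in a gel of proteoglycan inside the annulus fibrosus.

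Reads counted on genes numbered 4442775 to 7180221 per E12.5 litter and 6371842 to 8904050 per P0 litter. Levels are given as CPM (the counts of a gene scaled to a common library size). The smallest detectable signal was taken as 3 counts, which equalled from 0.353 CPM in NPD28 to 0.738 CPM in NPD9.2, counting error only. In NDP10.2 and NPD9.2 22.6% and 24.6% of the tallied reads fell on genes, against 30.9% to 34.8% in the other 6 litters. The mean chi-square per gene between the counts of a pair of litters was 13.7 for NDP10.2 with NPD9.2, against 33.2 to 69.5 for the other E12.5 pairs, and 16.6 for NPD26 with NPD27, against 71.9 to 105.5 for the other P0 pairs. These litters were thus alike in pairs but differed by more than sampling noise, and each was kept as its own replicate. The notochord markers T, Krt8 and Car3 were present in every litter, but Noto did not exceed 3 counts in any. Shh, the gene that drives the Cre, had 420.3 to 1348 CPM at E12.5 but 0.157 to 11.8 CPM at P0.

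The paired type IV collagen genes are shown first because each pair starts head to head from a common stretch of DNA, so their sequences and their counts can be read side by side. In the GENCODE M21 annotation of GRCm38, Col4a1 (chromosome 8, 11198423 to 11312826, minus strand) and Col4a2 (chromosome 8, 11312805 to 11449287, plus strand) overlap by 22 bases at their starts. Col4a4 (chromosome 1, 82448423 to 82586849, minus strand) and Col4a3 (chromosome 1, 82586921 to 82722059, plus strand) are 71 bases apart. Col4a6 (chromosome X, 141165403 to 141474076, minus strand) and Col4a5 (chromosome X, 141475385 to 141689234, plus strand) are 1308 bases apart. The windows before the Col4a1 and Col4a2 starts lie entirely in annotated exons of the pair, so short stretches of them are given, 30 bases each, in RefSeq sequence of GRCm38.p6 with the motif letters in capitals. In order these are the CCAAT box of Col4a1 (chr8:11312955-11312984, minus strand), the CCAAT box of Col4a2 (chr8:11312760-11312789, plus strand), and a GC box over the shared start, read on the Col4a2 strand (chr8:11312800-11312829, plus strand).
Col4a1: gtgcttgcccgggATTGGcgagccaagggg
Col4a2: cccgaggagctccCCAATttgttggcgctg
Col4a2: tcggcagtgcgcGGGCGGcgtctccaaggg

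The 250 bases before the start of Frem2 (chr3:53657356-53657605, minus strand), Lama5 (chr2:180225860-180226109, minus strand), Hmcn1 (chr1:150993436-150993685, minus strand) and Col4a6 (chrX:141474077-141474326, minus strand) are shown because Frem2 and Lama5 had the lowest fold changes of the 33 genes, Hmcn1 was the only one of the matched genes with a SOX or a forkhead motif, and Col4a6 shares its start region with Col4a5. None of the 4 windows overlaps an annotated exon. Capitals mark GC boxes (GGGCGG, or CCGCCC on the other strand), CCAAT boxes (CCAAT or ATTGG) and, in Hmcn1, the SOX and forkhead motifs given below.
Frem2: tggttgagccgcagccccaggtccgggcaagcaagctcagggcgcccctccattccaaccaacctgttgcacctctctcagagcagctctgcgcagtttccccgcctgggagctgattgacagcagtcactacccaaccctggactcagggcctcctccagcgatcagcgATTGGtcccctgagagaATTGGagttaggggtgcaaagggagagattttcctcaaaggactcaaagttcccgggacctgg
Lama5: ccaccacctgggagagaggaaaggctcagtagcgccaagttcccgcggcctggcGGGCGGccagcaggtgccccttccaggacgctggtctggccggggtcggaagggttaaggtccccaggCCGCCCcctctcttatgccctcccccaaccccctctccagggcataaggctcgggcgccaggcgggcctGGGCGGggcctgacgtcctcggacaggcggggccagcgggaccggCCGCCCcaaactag
Hmcn1: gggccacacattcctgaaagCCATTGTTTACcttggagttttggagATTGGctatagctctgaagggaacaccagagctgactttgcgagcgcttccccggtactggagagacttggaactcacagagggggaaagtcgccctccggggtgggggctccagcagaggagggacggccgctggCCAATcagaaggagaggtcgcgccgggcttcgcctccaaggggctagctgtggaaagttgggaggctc
Col4a6: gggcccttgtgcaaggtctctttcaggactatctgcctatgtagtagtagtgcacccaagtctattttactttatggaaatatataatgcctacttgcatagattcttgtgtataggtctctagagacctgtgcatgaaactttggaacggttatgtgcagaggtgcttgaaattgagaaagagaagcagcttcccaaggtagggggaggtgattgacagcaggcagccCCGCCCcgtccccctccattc

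RefSeq promoter windows, from 250 bases before to 50 bases after a start, were matched for 23 of the 33 genes, with 30 windows in all, some of which overlap because a gene has more than 1 start. The GC box GGGCGG, searched on both strands like every motif here, was in 18 of these 30 windows and in 35.7% of all 32851 windows. The CCAAT box was in 14 of 30 and in 37.4% of all windows. Motifs of developmental regulators were rare, with the SOX motif ACAATGG in 1 of 30 (3.66% of all windows) and the forkhead motif TGTTTAC in 1 of 30 (3.65%), both in Hmcn1, where the motifs overlap each other. Neither the GLI motif ACCACCC (4.61% of all windows) nor the T-box motif GGTGTGA (3.98%) was in any of the 30, which says only that these letters are not in these windows. GC boxes stood before Lama5, which was lower at P0, and also before Npnt and Dag1, which did not pass the test.

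Between E12.5 and P0, 21 of the 33 genes had lower abundance at P0, 2 had higher abundance and 10 did not pass the test (edgeR's quasi-likelihood test, adjusted p under 0.05, with adjustment by the Benjamini-Hochberg method over all genes tested). Among all tested genes 12.0% were lower and 16.0% were higher at P0, 27.9% in either direction. The 21 lower genes spanned every role, among them 4 of 6 type IV collagen chains, 4 of 5 laminin alpha chains, both nidogens, all 3 Fras/Frem genes, and the crosslinking enzyme Pxdn. Of the 33 genes, 21 were called lower with a fall of more than 2-fold, against 1610 of the 15467 genes tested. In 21 of the 33, every P0 litter lay below every E12.5 litter, against 14.4% of all tested genes. These are the same 21 genes, so this order rests on the values behind the calls and adds no separate support. The genes that rose were the laminin chains Lama3 and Lamb3, of which Lamb3 alone had every P0 litter above every E12.5 litter (15.5% of all tested genes). The stages did not overlap in either direction for 29.9% of all tested genes. Without regard to a threshold, 25 of the 33 genes had a log2 fold change below 0, against 48.4% of all tested genes. The median log2 fold change, P0 over E12.5, was -1.97 over the 33 genes and 0.04 over all genes tested. These are bulk samples, in which fewer cells of a type and less RNA per cell cannot be told apart.

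**Figure D1:**
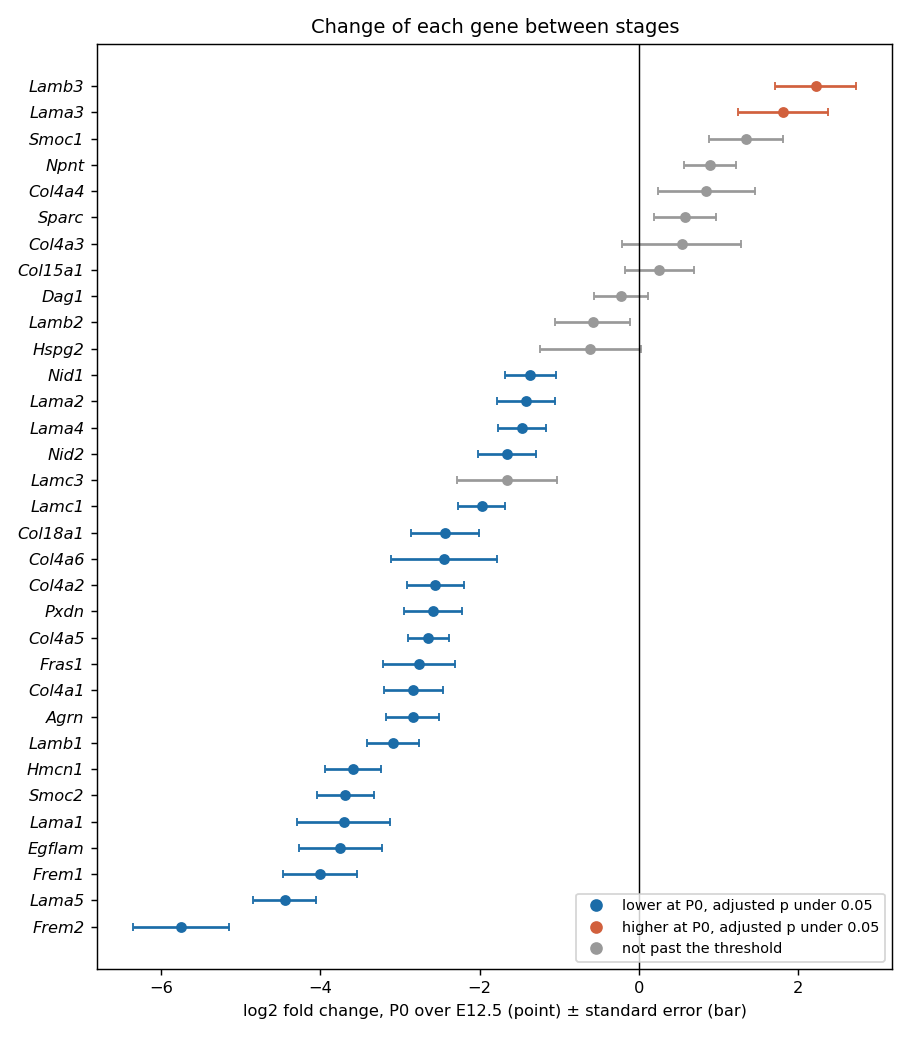
Each point is the log2 fold change (P0 over E12.5) of 1 gene, with a bar of ± 1 standard error from edgeR, 4 litters per stage. The 21 genes in blue were lower at P0, led by Frem2 at -5.75, the 2 in orange were higher, up to Lamb3 at 2.23, and the 10 in grey did not pass an adjusted p of 0.05.

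The type IV collagen chains form the covalent network of the sheet, and their trimers combine Col4a1 with Col4a2, Col4a3 with Col4a4 and Col4a5, or Col4a5 with Col4a6. Col4a1 was 306, 151, 237 and 243 CPM at E12.5, in the order NDP10.2, NPD3, NPD4, NPD9.2, and 18.7, 51.5, 21.4 and 40 CPM at P0, in the order NPD26, NPD27, NPD28, NPD30, and values below keep these orders. Its partner Col4a2 stood at 183, 91.5, 97.3 and 159.6 CPM at E12.5 and 12.9, 32.5, 17.2 and 27.9 CPM at P0. NDP10.2 was highest at E12.5 and NPD27 highest at P0 for both chains, and the stages lay well apart, with Col4a1 7.12-fold lower at P0 (log2 fold change -2.83 ± 0.37, adjusted p = 0.00052) and Col4a2 5.87-fold lower (log2 fold change -2.55 ± 0.36, adjusted p = 0.000733). Col4a5 went from 36.8, 46.6, 29.5 and 37.9 CPM to 5.66, 7.07, 5.42 and 5.91 CPM, a narrow range within each stage, and fell 6.25-fold (log2 fold change -2.64 ± 0.26, adjusted p = 0.000128). Col4a6 was scarce, at 7.55, 7.03, 3.51 and 14 CPM and then 1.73, 3.03, 0.471 and 0.606 CPM (log2 fold change -2.44 ± 0.67, adjusted p = 0.0187). NPD9.2 was its highest E12.5 litter, and without NPD9.2 its adjusted p was 0.0601 with a log2 fold change of -2.07. It did not pass without NDP10.2 and NPD9.2 together (log2 fold change -1.88, adjusted p = 0.142), or without NPD28 and NPD30 together (-1.73, adjusted p = 0.0792, a choice made after seeing the values). The P0 values of Col4a6 in NPD28 and NPD30 were near the 3-count floor.

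Col4a3 and Col4a4, known from the filtering membrane of the kidney, were low at both stages. Col4a3 was at 0, 1.95, 2.66 and 4.67 CPM at E12.5, with no read in NDP10.2, and 3.62, 3.32, 3.77 and 2.88 CPM at P0, so the stages overlapped (log2 fold change 0.55 ± 0.75, adjusted p = 0.63). Col4a4 was at 0.708, 2.73, 2.06 and 5.16 CPM and 2.36, 3.46, 6.59 and 6.67 CPM, which also overlapped (log2 fold change 0.85 ± 0.61, adjusted p = 0.331). An antisense transcript annotated over 5.65% of the exon bases of Col4a3 adds doubt to its count, since the strand setting of the counting was not given in the sources used here.

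Taken per kilobase of exons, where levels of different genes can be set side by side, Col4a1 and Col4a2 made up most of the type IV collagen RNA at both stages. Col4a1 held 53.4% ± 5.97 (SD, n = 4) of the summed CPM per kilobase of the 6 chains at E12.5 and 44.2% ± 4.89 at P0, and Col4a2 33.8% ± 4.08 and 34.9% ± 2.07. The share of Col4a3 was at most 0.721% at E12.5 but 2.4% to 5.95% at P0, and that of Col4a4 at most 0.749% and then 2.35% to 8.47%. Those shares did not overlap between stages, while the CPM of the same 2 genes did, and the other 4 chains in the sum fell.

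**Figure D2:**
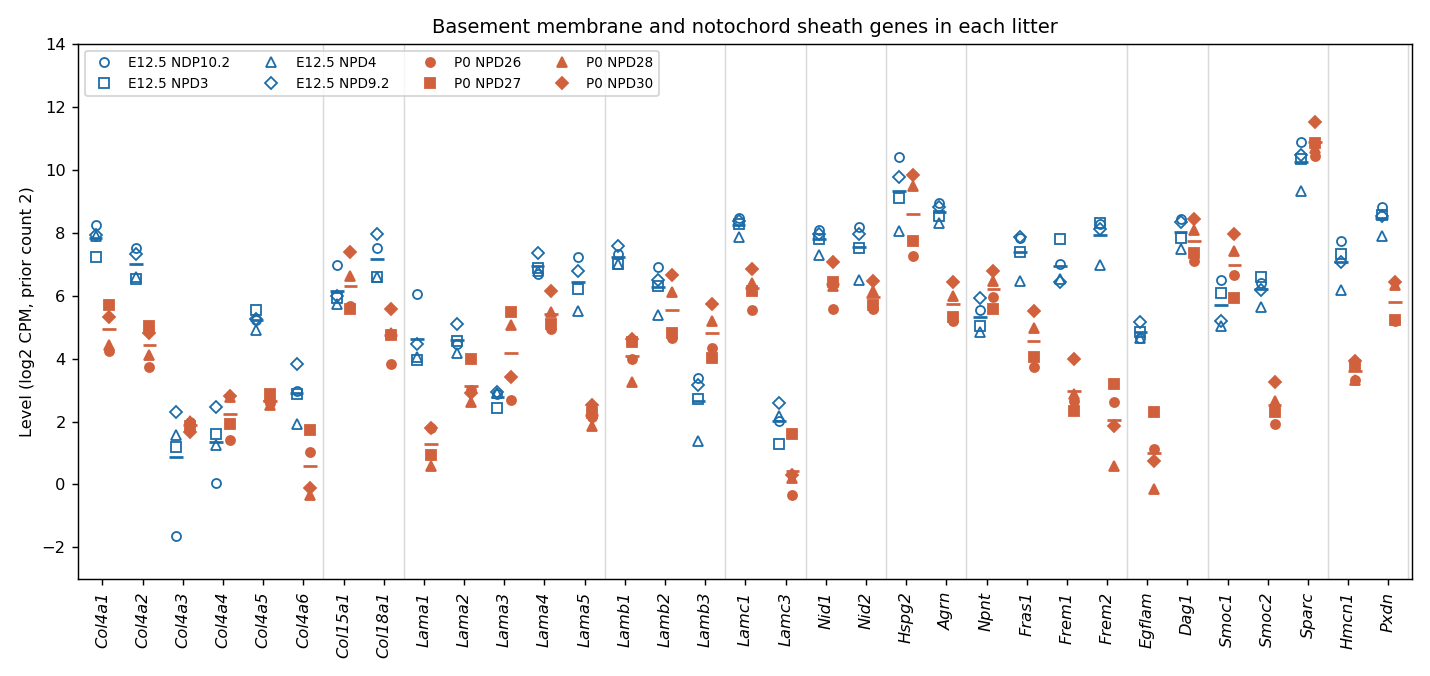
Level of each of the 33 genes in each litter, as log2 CPM with a prior count of 2, open blue symbols for the 4 E12.5 litters and filled orange symbols for the 4 P0 litters, dashes for stage means, and grey lines between roles. The orange symbols lie below all blue ones for 21 genes, and for Hspg2 and Lamb2 the P0 litters NPD28 and NPD30 lie above NPD26 and NPD27.

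Collagens XV and XVIII carry glycosaminoglycan chains and sit where basement membranes meet the matrix, and endostatin is cut from the end of collagen XVIII. Col18a1 was 182, 96.8, 97.2 and 248 CPM at E12.5 and 14, 26.5, 28 and 47 CPM at P0, 5.39-fold lower (log2 fold change -2.43 ± 0.43, adjusted p = 0.00229). Col15a1 was 127, 60.1, 52.5 and 63.4 CPM and then 50.2, 47.9, 99.2 and 166 CPM, with overlapping stages and NPD30 the highest of all 8 litters (log2 fold change 0.26 ± 0.43, adjusted p = 0.697). Its direction depended on that litter, since without NPD30 the log2 fold change was -0.24.

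Of the 5 laminin alpha chains, which carry the receptor-binding end of the trimer, 4 fell and 1 rose. Lama5, the broad alpha chain of epithelia and vessels, was 149.6, 74.3, 45.5 and 109.9 CPM at E12.5 and 4.09, 4.47, 3.30 and 5.46 CPM at P0, 21.8-fold lower (log2 fold change -4.45 ± 0.40, adjusted p = 8.94e-05). Lama1, the alpha chain of early embryonic membranes, was 65.6, 15.2, 16.3 and 21.9 CPM and 3.15, 1.59, 1.18 and 3.18 CPM (log2 fold change -3.71 ± 0.58, adjusted p = 0.0013). NDP10.2 was about 3 times the next highest litter for Lama1, and the gene passed in all 8 fits that each omitted a single litter, where its log2 fold change lay between -3.96 and -3.01. Lama4, known from vessels and mesenchyme, was 104, 117, 110.3 and 165 CPM and 30.4, 34.3, 44.5 and 71 CPM (log2 fold change -1.46 ± 0.30, adjusted p = 0.00476), and Lama2, the chain of muscle and Schwann cell membranes, was 21.9, 23.4, 17.9 and 33.9 CPM and 7.71, 15.7, 5.89 and 7.13 CPM (log2 fold change -1.41 ± 0.37, adjusted p = 0.0147). For both the lowest E12.5 litter was above the highest P0 litter, though for Lama2 only by 17.9 against 15.7 CPM. Lama2 did not pass without NDP10.2 and NPD9.2 together (log2 fold change -1.22, adjusted p = 0.0944) or without NPD28 and NPD30 together (-1.06, adjusted p = 0.0773).

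Lama3 encodes the alpha chain and Lamb3 the beta chain of a laminin known from epithelia. Lama3 was 7.08, 5.07, 7.25 and 7.38 CPM at E12.5 and 6.13, 44.4, 33.2 and 10.5 CPM at P0. NPD27 and NPD28 were the high P0 litters, while NPD26 lay within the E12.5 range (log2 fold change 1.81 ± 0.56, adjusted p = 0.0349). Of the 8 fits that left out 1 litter, 2 called Lama3 and 6 did not (those without NDP10.2, NPD3, NPD4, NPD9.2, NPD27 or NPD28), with adjusted p from 0.00915 to 0.102, and limma-voom did not call it either. Lamb3 was 10.1, 6.24, 2.30 and 8.61 CPM at E12.5 and 20, 15.9, 36.4 and 53.5 CPM at P0, 4.67-fold higher with no overlap (log2 fold change 2.23 ± 0.51, adjusted p = 0.00835), and it passed in all 8 of those fits. Without NPD28 and NPD30 together, a choice made after seeing the values, Lamb3 did not pass (log2 fold change 1.41, adjusted p = 0.063).

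Lamb1, the beta chain that pairs with Lama1 and Lama5 in embryonic laminins, was 160.2, 129, 127 and 192 CPM at E12.5 and 15.4, 22.6, 9.30 and 24.1 CPM at P0, 8.52-fold lower (log2 fold change -3.09 ± 0.33, adjusted p = 0.000189). Lamb2, known from synapses, kidney and muscle, was 120.5, 78.8, 42 and 90.2 CPM and 24.7, 27.7, 69.7 and 99.6 CPM (log2 fold change -0.58 ± 0.47, adjusted p = 0.4). The P0 litters of Lamb2 split, NPD26 and NPD27 below every E12.5 litter and NPD28 and NPD30 within their range. With NPD26 and NPD27 left out together, a choice made after seeing this split, its log2 fold change was 0.05, and with NPD28 and NPD30 left out it was -1.67 (adjusted p = 0.00737). Lamc1, the gamma chain common to most laminins, was 357, 309, 235 and 335 CPM at E12.5 and 46.5, 70.1, 84.2 and 114 CPM at P0 (log2 fold change -1.97 ± 0.30, adjusted p = 0.00103). Lamc3 was low, 3.77, 2.15, 4.23 and 5.66 CPM and 0.472, 2.74, 0.824 and 0.910 CPM (log2 fold change -1.66 ± 0.63, adjusted p = 0.0715). Lamc3 passed without NPD27 (adjusted p = 0.0235) and by DESeq2, and 6.27% of its exon bases are shared with an antisense transcript.

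Per kilobase of exons, the shares of 5 laminin chains did not overlap between the stages, given here as a description with no test. Lama5 held 33.6% ± 7.75 of the summed alpha chains at E12.5 and 5.71% ± 2.03 at P0, and Lama1 12.1% ± 6.82 and 3.82% ± 2.78, in both cases with no overlap. For Lama1 the stages nearly met, at 7.97% in NPD9.2 (E12.5) against 7.66% in NPD26 (P0). Lama3 held 2.76% ± 0.881 at E12.5 and 28.8% ± 18.8 at P0, with P0 litters from 12% to 48.7%. Its share in NPD26 was 13.5%, although its 6.13 CPM there lay within the E12.5 range, and the other 4 alpha chains in the sum fell. Lama4 was the largest chain on average at both stages, with 45.2% ± 11.7 and 53.6% ± 16.5. Among beta chains, Lamb1 held 52.5% ± 8.97 at E12.5 and 14.2% ± 8.80 at P0, and Lamb3 3.25% ± 1.04 and 30.4% ± 3.69, neither overlapping. Lamb2 overlapped, at 44.3% ± 8.03 and 55.3% ± 8.40, and Lamc1 held 98.3% ± 0.688 and 97.8% ± 1.90 of the 2 listed gamma chains.

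**Figure D3:**
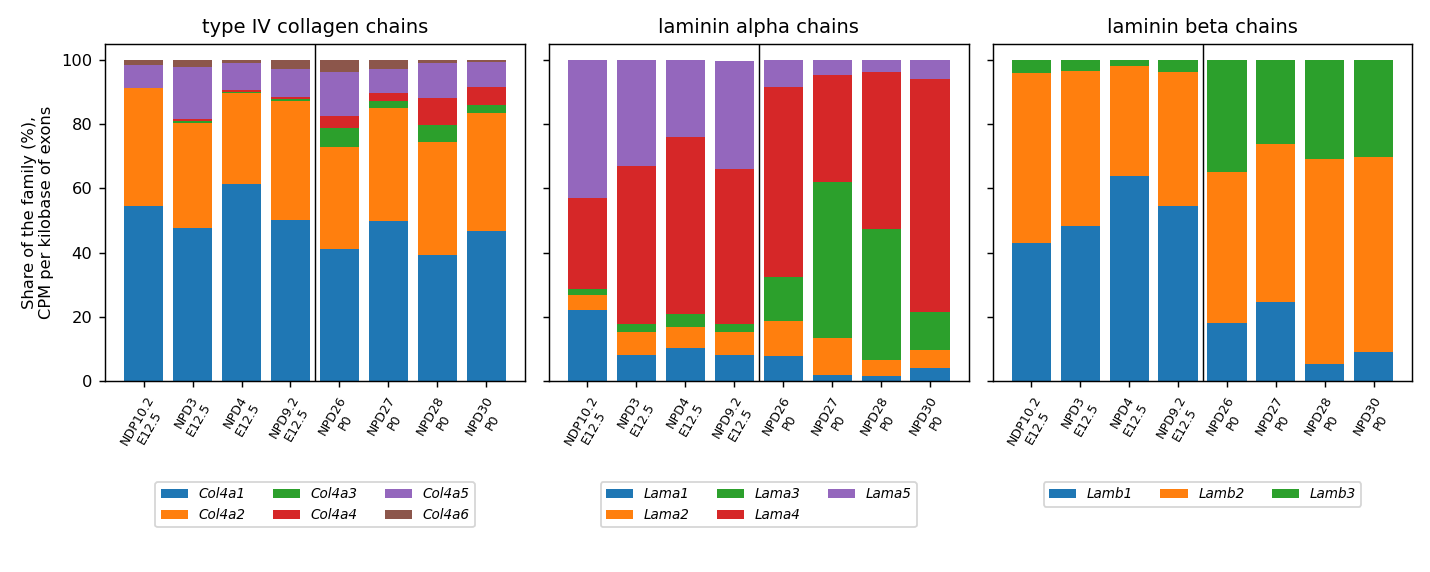
Stacked bars give, for each of the 8 litters, the share of each chain in the summed CPM per kilobase of exons of its family, in percent, with E12.5 litters left and P0 litters right of the black line. Lama5 and Lamb1 hold smaller and Lama3 and Lamb3 larger shares at P0 than at E12.5. Col4a1 and Col4a2 hold the largest type IV collagen shares in every litter. A share also moves when the other chains of its family change.

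The nidogens, which bridge laminin and type IV collagen, fell together. Nid1 was 271, 225, 157 and 248 CPM at E12.5 and 47.8, 87, 79.7 and 135 CPM at P0 (log2 fold change -1.36 ± 0.32, adjusted p = 0.00898), and Nid2 was 291, 182, 90.3 and 249.8 CPM and 47, 51.5, 70.4 and 88.8 CPM (log2 fold change -1.66 ± 0.36, adjusted p = 0.00641). NPD4 was the lowest E12.5 litter for both. Both passed without NPD28 and NPD30 together, but neither passed without NDP10.2 and NPD9.2 or without NPD26 and NPD27. Without NDP10.2 and NPD9.2 the log2 fold change was -1.16 for Nid1 (adjusted p = 0.0886) and -1.11 for Nid2 (adjusted p = 0.084), and without NPD26 and NPD27 it was -1.05 (adjusted p = 0.0601) and -1.33 (adjusted p = 0.0689). An antisense gene shares 8.45% of the exon bases of Nid2.

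The heparan sulfate proteoglycans perlecan (Hspg2) and agrin (Agrn) bind growth factors and tether the sheet to its receptors. Agrn was 490.2, 373, 314 and 449.7 CPM at E12.5 and 36.5, 40.1, 63.8 and 86.4 CPM at P0, 7.17-fold lower (log2 fold change -2.84 ± 0.33, adjusted p = 0.000294). Hspg2 ran over a wide range at both stages, 1361, 550.5, 268 and 869 CPM and 152, 215, 713 and 919.6 CPM (log2 fold change -0.61 ± 0.63, adjusted p = 0.517). NPD26 and NPD27 had the lowest values of all 8 litters, and NPD28 and NPD30 lay within the E12.5 range. The summed CPM of 6 Schwann and neural crest markers split the same P0 litters the other way, 639 and 836 in NPD26 and NPD27 against 91.6 and 102.5 in NPD28 and NPD30, and its part in the split of Hspg2 and Lamb2 was not tested. Without NPD28 and NPD30, a choice made after seeing the values, Hspg2 was lower at P0 (log2 fold change -2.05, adjusted p = 0.0241).

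Fras1, Frem1 and Frem2 form a complex beneath embryonic epithelia and hold it to the tissue below. The lowest fold change of the list was among them. Frem2 was 311, 315, 124 and 278 CPM at E12.5 and 5.82, 8.80, 1.18 and 3.33 CPM at P0, 53.9-fold lower (log2 fold change -5.75 ± 0.60, adjusted p = 0.000219). Frem1 was 129, 223, 92.2 and 87 CPM and 5.98, 4.76, 6.95 and 15.5 CPM, 16-fold lower (log2 fold change -4.00 ± 0.46, adjusted p = 0.00032), with NPD3 highest at E12.5 and NPD30 highest at P0. Fras1 was 230.0, 168, 88.4 and 231 CPM and 12.9, 16.4, 31.3 and 45.2 CPM, 6.77-fold lower (log2 fold change -2.76 ± 0.45, adjusted p = 0.00172). The P0 litters ranked differently for these partners, NPD28 and NPD30 being the highest for Fras1 and the lowest for Frem2. Npnt, nephronectin, the ligand of the integrin that contains Itga8, did not fall with them: it was 46, 32.2, 28.4 and 60.2 CPM at E12.5 and 62.4, 47.6, 88.9 and 110.5 CPM at P0 (log2 fold change 0.89 ± 0.33, adjusted p = 0.0636). It passed only without NPD9.2 or without NPD27 among the 8 fits, with adjusted p from 0.0351 to 0.174.

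Dystroglycan (Dag1) is the laminin receptor of the list, and pikachurin (Egflam) is a secreted ligand of it. Dag1 was 343, 225, 180.2 and 323 CPM at E12.5 and 137, 162, 269 and 348 CPM at P0 (log2 fold change -0.23 ± 0.34, adjusted p = 0.664), with NPD30 the highest of all 8 litters. Egflam was 24.8, 28.7, 25 and 35.6 CPM and 1.89, 4.61, 0.589 and 1.36 CPM, 13.5-fold lower (log2 fold change -3.75 ± 0.52, adjusted p = 0.0007), with no overlap.

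The matricellular proteins Sparc, Smoc1 and Smoc2 are relatives that bind calcium, and Sparc binds collagen. Smoc2 was 83.7, 95.8, 49.4 and 72.5 CPM at E12.5 and 3.46, 4.61, 6.00 and 9.25 CPM at P0, 12.9-fold lower (log2 fold change -3.69 ± 0.35, adjusted p = 0.00012). Smoc1 was 90.6, 67.9, 32.3 and 36.1 CPM and 99.9, 60.9, 169.9 and 248 CPM, and missed the threshold (log2 fold change 1.35 ± 0.47, adjusted p = 0.0539), with NPD27 within the E12.5 range. Without NPD27 or NDP10.2 it passed, and the adjusted p over the 8 fits ran from 0.0197 to 0.144. Sparc was the most abundant listed gene per kilobase at both stages, 1899, 1294, 646 and 1420.0 CPM and 1389, 1859, 1662 and 2964 CPM, which overlapped (log2 fold change 0.58 ± 0.39, adjusted p = 0.293).

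Hemicentin (Hmcn1), a very large extracellular protein at the junction of neighbouring basement membranes, was 213, 161, 72.5 and 135 CPM at E12.5 and 9.75, 13.7, 9.77 and 15 CPM at P0, 12.1-fold lower (log2 fold change -3.59 ± 0.35, adjusted p = 0.000141). Peroxidasin (Pxdn), the peroxidase that crosslinks type IV collagen trimers, was 452, 381, 239 and 374 CPM and 36.3, 37.4, 80.4 and 86.4 CPM, 6.01-fold lower (log2 fold change -2.59 ± 0.36, adjusted p = 0.000714). Both were lower in every P0 litter than in any E12.5 litter, by a wide margin.

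Ratios of partner genes within a litter do not depend on the scaling between libraries, and 12 were computed as differences of log2 CPM with a prior count of 2. In 6 of the 12 the stages did not overlap. The ratio of Smoc2 to Smoc1 moved most: the E12.5 values were -0.11, 0.50, 0.61 and 1, those at P0 were -4.73, -3.63, -4.75 and -4.70, and the difference of the means was -4.95. The ratio of Frem2 to Fras1 was 0.27 to 0.90 at E12.5 but -4.40 to -0.88 at P0, with a difference of -3.03. Col15a1 over Col18a1 went from a mean of -1.01 ± 0.65 (SD, n = 4) to 1.57 ± 0.48, and Lamb2 over Lamb1 from -0.95 ± 0.51 to 1.46 ± 1.20. Agrn over Hspg2 went from -0.69 ± 0.72 to -2.84 ± 0.71, and Lama4 over Lama1 from 2.30 ± 1.10 to 4.15 ± 0.73. Each of these 6 had an exact permutation p of 0.0286, two-sided, the smallest that 4 against 4 litters allow, and 0.0571 after adjustment over the 12, so none passed after adjustment.

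The other 6 ratios overlapped. Col4a2 over Col4a1 was -0.84 ± 0.30 at E12.5 and -0.50 ± 0.14 at P0 (exact permutation p = 0.0571), and Col4a6 over Col4a5 was -2.32 ± 0.68 and -2.07 ± 0.86 (exact permutation p = 0.714). Nid2 over Nid1 was -0.25 ± 0.40 and -0.39 ± 0.34 (exact permutation p = 0.657), and Lama5 over Lama1 was 1.81 ± 0.57 and 0.92 ± 0.47 (exact permutation p = 0.0857). Col4a5 over Col4a1 (exact permutation p = 0.457) and Col4a4 over Col4a3 (exact permutation p = 0.857) also overlapped. A p that misses the threshold does not show that a ratio was equal at the stages.

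**Figure D4:**
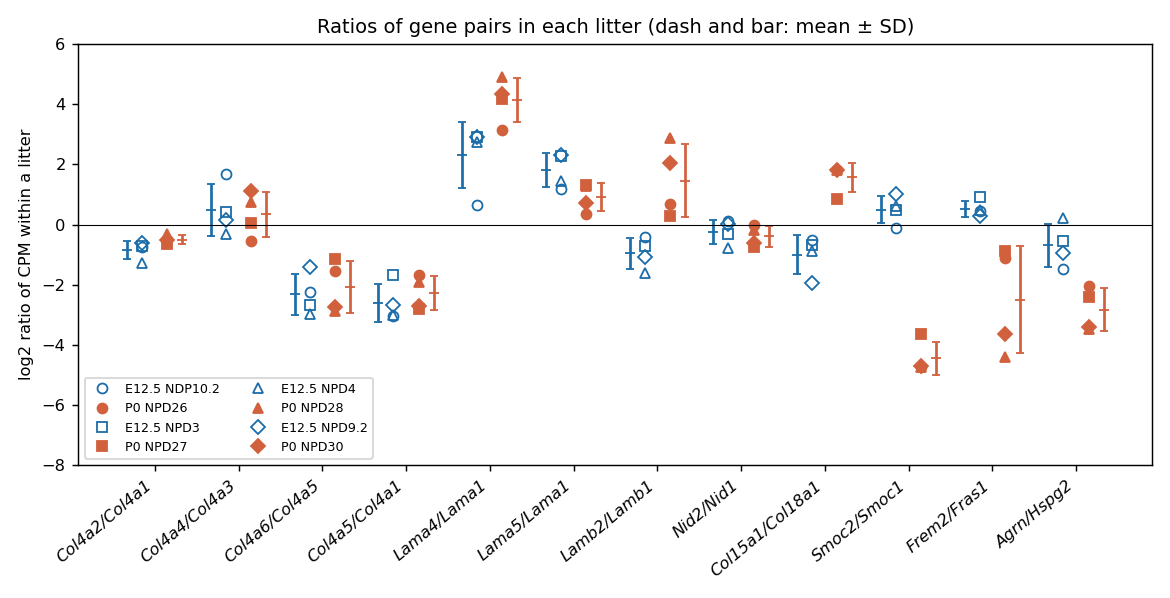
Log2 ratio of CPM (prior count 2) for 12 gene pairs in each litter, open blue symbols for E12.5 and filled orange symbols for P0, with a dash and bar for the mean ± SD of the 4 litters of a stage. Stages do not overlap for 6 pairs, most clearly Smoc2/Smoc1, where P0 litters lie between -4.75 and -3.63.

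Per kilobase of exons the order of the list changed at its top. Sparc was 1st at both stages, at 347 ± 136 CPM per kilobase at E12.5 and 519.7 ± 182 at P0. At E12.5 it was followed by Hspg2 (53.3 ± 32.8), Agrn (43.8 ± 8.45) and Dag1 (42.1 ± 12.2), whose values did not differ beyond their spread. At P0 it was followed by Smoc1 (41.4 ± 23.6), Dag1 (36 ± 15.4) and Hspg2 (34.9 ± 26.3), again within their spread. Agrn moved from 3rd to 12th, at 6.11 ± 2.50 CPM per kilobase at P0, and Frem2 from 12th to 28th, at 0.361 ± 0.248. In the other direction Npnt moved from 22nd to 5th, at 8.30 ± 2.88 and then 15.4 ± 5.56, and Col15a1 from 16th to 6th, at 11.9 ± 5.42 and 14.3 ± 8.70.

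**Figure D5:**
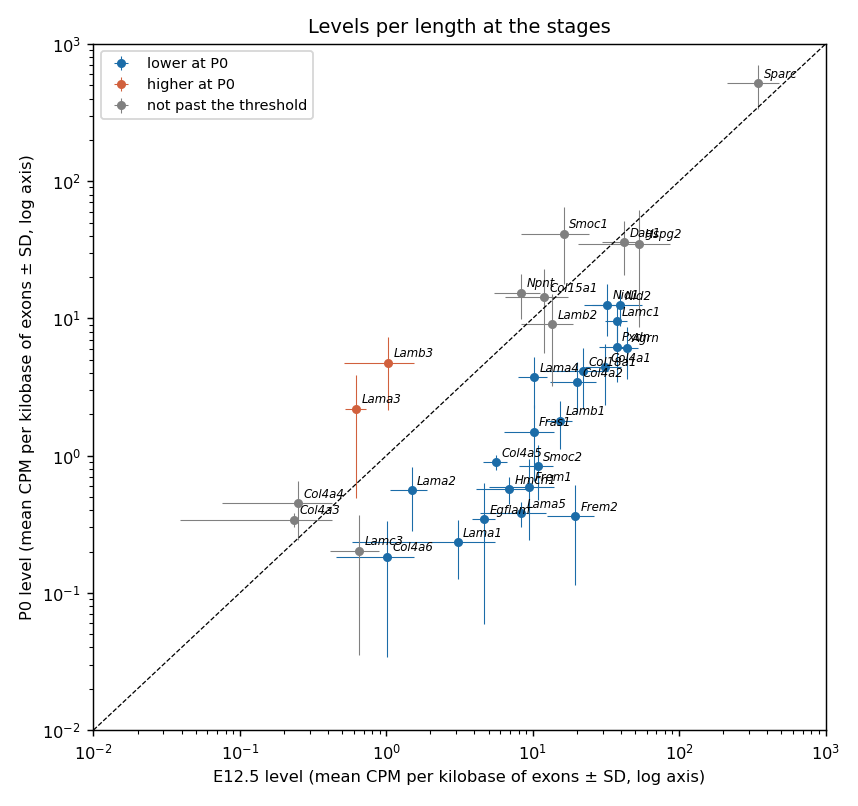
Mean level of each listed gene in CPM per kilobase of exons, E12.5 on the x axis and P0 on the y axis, both log axes, with bars of ± SD over 4 litters (lower bars end above 0) and a dashed line of equal levels. Sparc lies far above the rest at both stages, the 21 blue genes lie below the line, and Frem2 falls from 19.4 to 0.361.

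Within a stage the litters also ranked in a regular way over the list. NPD4 was the lowest E12.5 litter for 22 of the 33 genes (66.7%, against 29.7% of all tested genes), and the highest for none. NDP10.2 was the highest E12.5 litter for 17 (51.5%, against 28.1%). Among P0 litters NPD30 was the highest for 23 of 33 (69.7%, against 26.6%) and NPD26 the lowest for 19 (57.6%, against 24.6%). The summed CPM of 10 neural tube markers was 1008 in NPD4 against 132 to 266 in the other E12.5 litters. Of that sum in NPD4, Tubb3 held 576 CPM and Elavl3 289 CPM. Sox2 and Neurog1 were also highest in NPD4 among the E12.5 litters, whereas Nes and Pax6 were lowest there. The endothelial sum was highest in NPD4 too, at 187.5 CPM against 95.8 to 145.6. The notochord sum was lowest in NPD4, at 2813 CPM against 3196 to 7149. Also lowest there were the pericyte and smooth muscle, sclerotome, skeletal muscle, leukocyte, osteoblast, and annulus and tendon fibroblast sums. The summed CPM of 11 notochord markers was 32350 in NPD30 against 8347 to 12850 in the other P0 litters. Car3 alone made up 24890 CPM of that sum, and without Car3 it was 7459 in NPD30 against 2097 to 4055. The summed CPM of 14 leukocyte markers was 1205 in NPD30 against 4687 to 9290 in the other P0 litters. What these marker levels contribute to the ranks of the listed genes was not tested.

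Markers of other cell types were counted in the same way, against 12.0% lower and 16.0% higher among all tested genes. The 11 endothelial markers summed to 95.8 to 187.5 CPM at E12.5, against 32 to 136 CPM at P0, and 1 of the 10 tested was lower. Without regard to a threshold, all 10 tested had a log2 fold change below 0 (48.4% of all tested genes), with a median of -0.98. The 10 pericyte and smooth muscle markers summed to 356 to 863 CPM and 297 to 688 CPM, with 4 of 10 lower and 2 higher. Both of these sums overlapped between the stages. All 7 sclerotome markers were lower at P0 (135 to 205 CPM against 8.01 to 23.2), as were all 6 tested of 8 skeletal muscle markers (191 to 1005 CPM against 5.77 to 34.3) and 5 of the 6 tested of 8 markers of gut, lung and liver epithelium (73.6 to 739 CPM against 6.71 to 17.6). Of the Schwann and neural crest markers, 4 of 6 were lower and 1 was higher (281 to 542 CPM against 91.6 to 836). Of 11 notochord and nucleus pulposus markers, 3 of the 10 tested were higher and 2 lower (2813 to 7149 CPM against 8347 to 32350). Without Car3 the sum of the notochord markers was 2118 to 4790 CPM at E12.5 and 2097 to 7459 CPM at P0, which overlapped. The 3 primitive erythroid markers went from between 8120 and 32810 CPM to between 2.12 and 7.07. In the other direction, all 13 tested of 14 leukocyte markers were higher at P0 (62.3 to 158 CPM against 1205 to 9290), as were 5 of 6 tested of 7 osteoblast markers (30 to 88.2 CPM against 341 to 714). Of 7 annulus and tendon fibroblast markers, 3 of the 6 tested were higher and 2 lower (1024 to 2952 CPM against 5305 to 18930), and of 10 neural tube markers 2 of the 5 tested were lower (132 to 1008 CPM against 117 to 299.7). Few markers were absent throughout a stage, namely Elane and Dmp1, which had no read in any E12.5 litter. The part of these cell types in the changes of the 33 genes was not tested.

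Lists of other genes of the same system were counted beside the 33, and each count is to be read against 12.0% lower and 16.0% higher among all tested genes. Of 18 other basement membrane components, 14 were tested, 6 were lower and none was higher (edgeR, with none higher at an unadjusted p under 0.05, and none by DESeq2 or limma-voom), and the median log2 fold change was -1.48. Egfl6, a secreted basement membrane protein, fell from 30.4, 14.1, 9.67 and 34.7 CPM to 1.10, 4.47, 2.94 and 1.97 CPM (log2 fold change -3.06 ± 0.54, adjusted p = 0.00216). Fbln1, fibulin 1, a nidogen-binding matrix protein, fell from 88.5, 70.8, 66.1 and 102 CPM to 13.8, 13.3, 8.48 and 15.8 CPM (log2 fold change -2.67 ± 0.27, adjusted p = 0.000148). For both genes no P0 litter reached an E12.5 litter.

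Of 16 receptors for laminin, type IV collagen and nephronectin, 15 were tested, 2 were higher and 2 lower (against 16.0% and 12.0% of all tested genes), with a median log2 fold change of -0.09. The collagen receptors Itga1 and Ddr2 rose. Itga1 was 10.4, 11.5, 6.77 and 11.3 CPM at E12.5 and 22.6, 26.8, 59.8 and 81.6 CPM at P0 (log2 fold change 2.26 ± 0.42, adjusted p = 0.00307), and Ddr2 was 172, 199, 95.4 and 146 CPM and 264, 224, 644 and 882 CPM (log2 fold change 1.72 ± 0.45, adjusted p = 0.016). Both were higher in NPD28 and NPD30 than in NPD26 and NPD27. Itga8, which binds nephronectin, fell (log2 fold change -2.39 ± 0.59, adjusted p = 0.012), and so did the laminin receptor Itga3 (log2 fold change -2.03 ± 0.47, adjusted p = 0.00921). Itga1 was called in every setting. Ddr2 was called in 7 of the 8 fits that each left out 1 litter. Without NDP10.2 and NPD9.2 together, Ddr2, Itga8 and Itga3 were not called. Ddr2 was also not called without NPD28 and NPD30, nor Itga8 and Itga3 without NPD26 and NPD27, choices made after seeing the values. Itga8 was not called by limma-voom either.

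None of the 16 enzymes that build the laminin-binding sugar of dystroglycan was called in either direction by edgeR, DESeq2 or limma-voom, and 1 was lower at an unadjusted p under 0.05 by each of these tools. Their median log2 fold change was -0.09, with a range from -0.69 to 0.53. Of 14 partners of dystroglycan in the dystrophin complex, 13 were tested, 3 were higher and 1 lower (against 16.0% and 12.0%), with a median of 0.17. The sarcoglycan Sgcb was among those that rose (log2 fold change 1.07 ± 0.34, adjusted p = 0.0397), and the dystrobrevin Dtnb fell (log2 fold change -0.95 ± 0.26, adjusted p = 0.02). With single litters omitted, Sgcb was called in 2 of 8 fits, and it was not called under upper quartile normalization. Dtnb was called in 6 of those 8. Of 14 genes for folding and crosslinking of type IV collagen, 1 was higher and 1 lower (against 16.0% and 12.0%), with a median of -0.06. The collagen chaperone Serpinh1 went from 663, 496, 293 and 639 CPM to 139, 207, 251 and 316 CPM (log2 fold change -1.19 ± 0.34, adjusted p = 0.0221), and the prolyl 3-hydroxylase gene P3h2 from 10.6, 10.3, 10.8 and 9.10 CPM to 10.7, 14.1, 28.5 and 38.5 CPM (log2 fold change 1.17 ± 0.40, adjusted p = 0.0481). Both overlapped between stages. With single litters omitted, P3h2 was called in 2 of 8 fits, and it was not called by limma-voom, under RLE or upper quartile normalization, or with marker genes removed. Serpinh1 was called in 4 of those 8 fits.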

How the data were processed

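The authors aligned reads to GRCm38 with STAR 2.4.0j and deposited, per sample, the raw count that htseq-count gave each GENCODE gene, without normalization. The strand setting of the counting is not given in the sources used here. Symbols were matched for 42462 of 43346 identifiers, and exon lengths, positions and overlaps came from GENCODE M21, a later annotation. Counts were tested in R 4.3.3 with edgeR 4.0.16 (TMM normalization, filterByExpr with a minimum count of 10 and a minimum total of 15, robust quasi-likelihood F-test, no covariate), and p-values were adjusted by the Benjamini-Hochberg method over 15467 genes. The method was tested on simulated data. CPM used TMM library sizes. Ratios within a litter used a two-sided exact permutation test. Standard errors were obtained from the fold change and the F value. Promoter windows came from RefSeq, build GRCm38.p6. Alternatives were DESeq2 1.42.0, limma 3.58.1 (voom), other normalizations, no filter, estimates that were not robust, mitochondrial, hemoglobin and leukocyte marker genes removed, a prior count of 0.5, and litters left out. The members and the lists of other genes were chosen with earlier results of these data known. Every listed gene is named, and of each other list the 2 called genes that rose most and the 2 that fell most. Some genes of the other lists are not reported here. The labels say that each sample is a separate litter.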

Additional observations from a re-analysis of the deposited data

Results flagged for a closer look

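Of 90 sets of 4 litters examined (33 genes and 12 ratios at each stage), 5 held a litter far from the other 3, and chance alone gives about 1 in 20. In log2 CPM, Lama3 was 2.43 in the E12.5 litter NPD3 against 2.89 to 2.94 in the other E12.5 litters, and Frem2 was 6.96 in NPD4 against 8.12 to 8.30. The log2 ratio of Lama4 to Lama1 was 0.66 in NDP10.2 against 2.73 to 2.92 in the other E12.5 litters, where Lama1 itself was high. Among P0 litters NPD27 stood apart in 2 ratios, with Col15a1 over Col18a1 at 0.84 against 1.81 to 1.82, and Smoc2 over Smoc1 at -3.63 against -4.75 to -4.70.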

How the results depend on the processing

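The 21 genes lower at P0 numbered 20 to 22 when each litter was left out, 17 without NDP10.2 and NPD9.2, 19 without NPD26 and NPD27 and 21 without NPD28 and NPD30, and the 2 higher genes 1 to 3 when each litter was left out. No paired analysis was possible because each stage has its own litters and the labels name litters without replicate numbers. Of the 33 genes, all kept their direction and call under RLE and upper quartile normalization and without marker genes, 32 by limma-voom, with no filter and with estimates that were not robust, and 31 by DESeq2. Gained calls were Lamc3 and Smoc1 by DESeq2, Npnt with no filter and Smoc1 with estimates that were not robust, and Lama3 was lost by limma-voom. The higher genes numbered 1 by limma-voom, 1 without NDP10.2 and NPD9.2, 4 without NPD26 and NPD27, and 1 without NPD28 and NPD30 (the last pair of settings chosen after seeing the data). Col15a1 ranged from -0.24 to 0.59 when 1 litter was left out, below 0 without NPD30, and was -0.64 without NPD28 and NPD30. Without NDP10.2 and NPD9.2, Hspg2 (0.25) and Dag1 (0.14) reversed, and so did the ratios Col4a4/Col4a3 (0.30) and Nid2/Nid1 (0.16). Without NPD26 and NPD27, Lamb2 (0.053), Hspg2 (0.12), Dag1 (0.22), Col4a4/Col4a3 (0.46) and Col4a6/Col4a5 (-0.48) reversed. None of these was called in the reported fit. Leaving out 1 litter, Col4a4/Col4a3 ranged from -0.40 to 0.27 and Col4a6/Col4a5 from -0.062 to 0.55. With 3 litters against 4 the exact test cannot go below 0.0571, nor with 2 against 4 below 0.133, so those settings say nothing on the stability of a ratio.

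The small lists moved most. Leaving out 1 litter, the dystrophin complex had 1 to 3 higher and 0 to 3 lower, collagen assembly 0 to 1 higher and 0 to 4 lower, receptors 1 to 3 higher and other basement membrane genes 0 to 1 higher. For collagen assembly, DESeq2 gave 2 higher and 2 lower, no filter 2 higher and 3 lower, upper quartile normalization 0 higher and 2 lower, and RLE normalization, limma-voom and the removal of marker genes 0 higher. Without NDP10.2 and NPD9.2 it had 0 higher and 0 lower, without NPD26 and NPD27 0 lower, and without NPD28 and NPD30 4 lower. The dystrophin complex had 1 higher and 2 lower under upper quartile normalization, 1 higher and 0 lower without NDP10.2 and NPD9.2, 0 lower without NPD26 and NPD27, and 1 higher and 3 lower without NPD28 and NPD30. Receptors had 1 lower by limma-voom, 1 higher and 0 lower without NDP10.2 and NPD9.2, and 1 lower without NPD26 and NPD27. Other basement membrane genes had 2 higher with no filter and 2 higher without NPD28 and NPD30. The cause was not tested.

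Depth limits Col4a3, Col4a4, Col4a6 and Lamc3, each with at least 1 litter at 4 counts or fewer.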
